A study of Mus musculus with 9 samples.

Results

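The comparison set mouse embryonic stem (ES) cells in a Paused condition against the same lines in Serum and in 2i combined. Messenger RNA was sequenced from E14, v6.5 and the Oct4 GiP reporter line, 3 established ES lines. Oct4 is another name for Pou5f1. Each line gave 1 library per condition, 9 in all, so 3 Paused libraries stood against 6 others. All lines were at passages 20 to 23 and grew on gelatin for 2 weeks. For the Paused condition INK128, an mTor inhibitor, was present at 200 nM over those weeks. The labels give no composition for Serum or 2i, and 2i usually stands for inhibitors of MEK and GSK3 in serum-free medium, which block ERK signalling and raise Wnt signalling. Of 24044 named rows 12711 were expressed enough to test, and of these 3162 differed in the combined comparison and also had a Paused value outside both other conditions in each of the 3 lines, and these genes are called the higher set (1422) and the lower set (1740) below. The replicates are single libraries of different lines, and nothing in the labels says that cultures were repeated, so p-values measure how far the condition differences vary among these 3 lines.

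The mTOR kinase works in a pair of complexes. In complex 1, with Raptor, it promotes translation through the 4E-BP proteins and S6 kinases, promotes lipid synthesis through SREBP factors and amino acid supply through ATF4, and restrains autophagy and the lysosomal program of the TFE factors. In complex 2, with Rictor, it activates Akt, which keeps FoxO transcription factors out of the nucleus. INK128 competes with ATP at the kinase and acts on both complexes. In mouse development a low growth state is known from diapause, when the blastocyst halts before implantation.

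Levels are FPKM, fragments scaled by transcript length and library size. Differences are on the log2(FPKM + 1) scale, Paused minus the mean of Serum and 2i, ± the limma standard error, and p-values are adjusted by Benjamini-Hochberg over the 12711 genes. On that scale 1846 genes were higher in Paused (14.5% of those tested) and 2436 lower (19.2%) at an adjusted p under 0.05. Without regard to the test, the Paused value lay above both other conditions in every line for 1979 genes (15.6%) and below both for 2205 (17.3%). The 2 criteria together left 1422 higher (11.2%) and 1740 lower (13.7%). Most of these genes stood clear of the nearer condition by a modest amount: the gap, Paused minus the nearer of Serum and 2i averaged over the lines, had a median of 0.38 in the higher set and -0.39 in the lower, and reached 1 or more in 57 and 77 genes. The criterion has no minimum size, and the lines just inside and just outside it differed from the nearer condition by 0.000169 and -6.15e-05 on the higher side and by -5.71e-05 and 4.12e-05 on the lower. Serum was the nearer condition by the mean difference for 1019 of the 1422 higher and 1199 of the 1740 lower genes. Against Serum alone, 971 genes were higher (7.64%) and 1340 lower (10.5%), and against 2i alone 2517 were higher (19.8%) and 3121 lower (24.6%), both with the same Paused libraries. Another 424 genes called higher and 696 called lower did not lie on that side of both other conditions in at least 1 line.

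**Figure D1:**
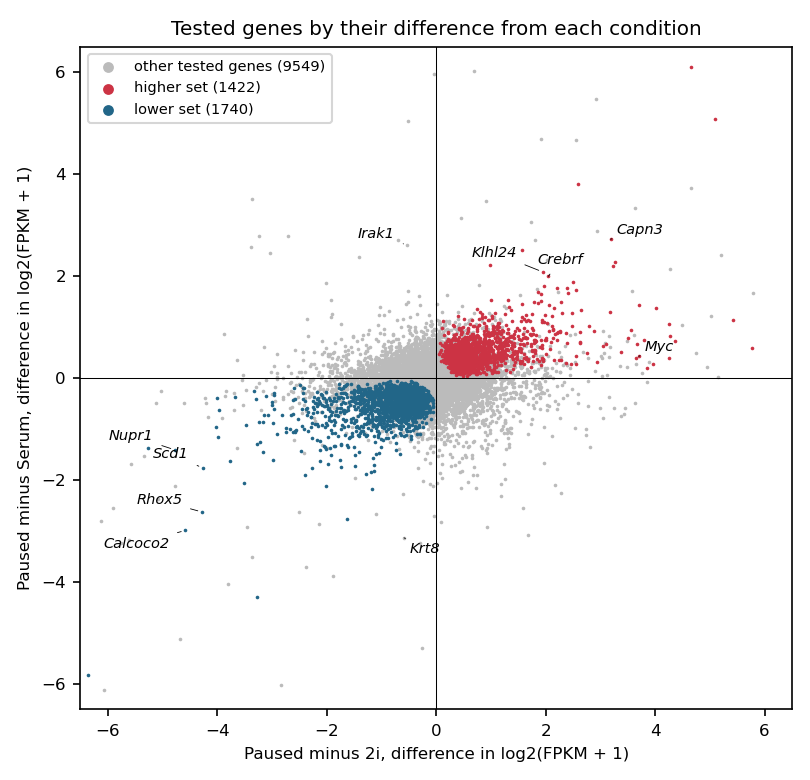
Each point is a tested gene, with Paused minus 2i on the horizontal axis and Paused minus Serum on the vertical, both in log2(FPKM + 1) and sharing the Paused libraries. The higher set (red, 1422 genes) fills the upper right and the lower set (blue, 1740 genes) the lower left, Irak1 and Krt8 lie outside both, and points beyond 6.5 on either axis are not drawn.

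The counts depended on how the spread was taken and on each Paused library. A fit with a single level for the 6 other libraries, which leaves the difference between Serum and 2i in the residual spread, called 207 higher and 313 lower, each of them in the sets above. Of 137 genes followed by name, 129 were called with 3 levels, and 63 of these lost their call in that fit. Of the leading genes these were Shisa2, Scd1, Rtkn, Scd2, Dusp14 and Nupr1. Of the higher genes described below they included Mtor, Deptor, Fnip1, Fnip2, Igf1r, Sox2, Lin28a, Tdgf1, Dppa5a, Stat3, Pim1, Myc, Mycn, Egr1, Spry4, Spred1, Tcf15, Dnmt3l, Rps27, Slc16a3, Pdk1, Utf1, Irak1, Pax6 and Sox1. Of the lower genes they included Eif4ebp1, Sesn2, Gabarapl1, Cdkn1a, Tk1, Chac1, Trib3, Phgdh, Aars, Hmgcs1, Fdps, Dhcr7, Acaa2, Hmox1, Nqo1, Ctsc, Hk1, Pfkm, Pttg1, Rpl41, Sparc, Vim and Krt8. Without the Paused library of E14 the sets held 501 and 755 genes, without that of v6.5 742 and 1020, and without that of Oct4 GiP 629 and 972, each fit having 3 residual degrees of freedom in place of 4. Without the 3 Oct4 GiP libraries they held 53 and 77, with 2 residual degrees of freedom.

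The deposited table has a second column per library that holds the same FPKM times 1 constant, and the counts differed greatly between the columns. The constant was 1.81, 1.84 and 1.99 in the Paused libraries of the E14, v6.5 and Oct4 GiP lines, against 2.45 to 3.74 in the 6 others (exact permutation test, two-sided, p = 0.0238, the smallest 3 against 6 can give). In FPKM the median tested gene differed by -0.03 between Paused and the mean of the others, and in the second columns by -0.73. Read from those columns, 56 genes were in the higher set (0.441%) and 7736 in the lower (60.9%). The labels say that ERCC control RNA was added to the samples, while the sources used here do not give the origin of the constants. FPKM compares a gene with the rest of its library, so a value in FPKM says nothing of RNA per cell, and fewer cells of a type and less RNA per cell cannot be told apart in bulk samples. Values from both kinds of column are given where the direction differs.

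**Figure D2:**
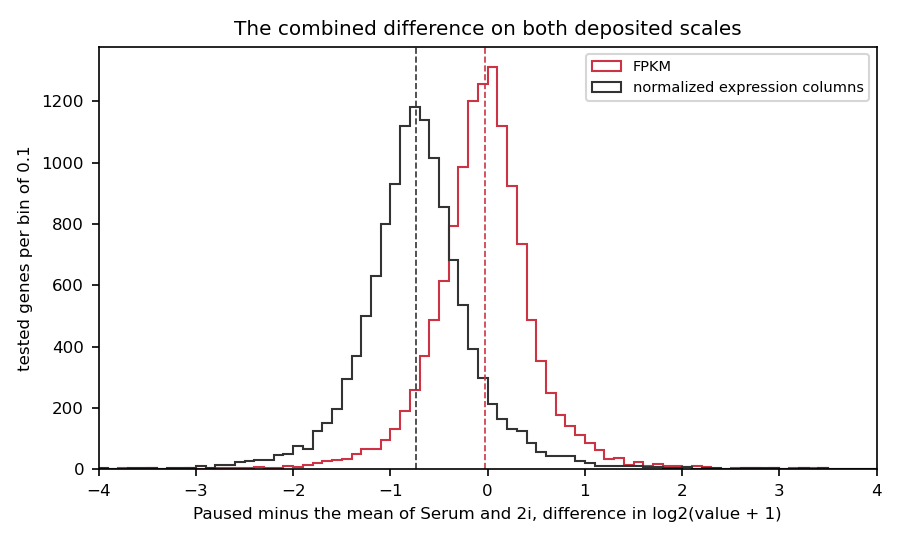
The lines count tested genes per bin of 0.1 by the combined difference, Paused minus the mean of Serum and 2i in log2(value + 1), for FPKM (red) and for the second, normalized expression columns (black). Dashed lines mark the medians, -0.03 for FPKM and -0.73 for the other columns, and genes beyond 4 are not drawn.

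Some of the genes that stood farthest above both conditions were low outside Paused, with values under 1 FPKM in some of those libraries. The leading genes were chosen for the size of their gap, so their differences describe the extreme of the set. Capn3, the calpain protease best known from muscle, measured 2.31, 0.685 and 3.23 FPKM in Serum (E14, v6.5 and Oct4 GiP, an order kept throughout), 1.3, 0.673 and 1.35 in 2i and 31.1, 8.24 and 22 in Paused. Each Paused library stood above all 6 others. The combined difference of Capn3, Paused minus the mean of Serum and 2i, was 2.96 ± 0.23 (adjusted p = 0.0015). Arhgef28, a guanine nucleotide exchange factor, measured 2.05, 0.663 and 1.01 FPKM in Serum, 0.148, 0.0352 and 0.102 in 2i and 14.8, 6.67 and 8.71 in Paused. It was at or below 0.148 FPKM in the 2i libraries and highest in Paused, again without overlap (2.78 ± 0.16, adjusted p = 0.0012). Pou2f2, the POU-domain factor of B cells, went from at most 1.14 FPKM in the 6 others to 4.82, 7.37 and 3.46 in Paused (1.99 ± 0.18, adjusted p = 0.0023). Arhgef28 and Pou2f2 met the filter for testing, FPKM of at least 1 in 3 libraries, only with the Paused libraries counted, so their calls are a description.

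Crebrf, Klhl24, Hbp1 and Nr1d2 were expressed in each condition and changed by nearly the same amount in each line. Crebrf, a regulator of the transcription factor CREB3, measured 2.27, 2.02 and 2.11 FPKM in Serum, 2.04, 1.82 and 2.22 in 2i and 12.5, 10.4 and 11.7 in Paused. Klhl24, a substrate adaptor of a cullin ubiquitin ligase, measured 11.3, 7.75 and 8.15 in Serum, 10.8, 8.34 and 11 in 2i and 43.8, 36.4 and 44 in Paused. Hbp1, an HMG-box repressor of cell cycle genes, measured 19.5, 18.9 and 18.7 in Serum, 15.8, 14.8 and 16 in 2i and 57.3, 54.5 and 55.5 in Paused. For these 3 genes Serum and 2i were close to each other and the Paused libraries lay far above both: the differences were 2.02 ± 0.09, 2.01 ± 0.10 and 1.64 ± 0.06, with adjusted p of 0.00074, 0.00086 and 0.00074, among the smallest standard errors of the leading genes. Nr1d2, a nuclear receptor of the circadian clock (Rev-erb beta), behaved alike, with 6.1, 5.72 and 6.28 FPKM in Serum, 4.73, 3.95 and 4.55 in 2i and 18.9, 16.7 and 20.1 in Paused (1.66 ± 0.08). Bmf, a BH3-only inducer of apoptosis, rose by 1.78 ± 0.15, and Derl3, a component of the machinery that removes misfolded proteins from the endoplasmic reticulum, by 1.77 ± 0.26. Platr7, a noncoding transcript named for its link to pluripotency, rose by 2.04 ± 0.27 and Zmat4, a zinc finger gene, by 1.89 ± 0.27. The distance of Zmat4 to the nearer condition ranged from 0.77 in E14 to 2.34 in Oct4 GiP. Shisa2, an antagonist of Fgf and Wnt receptor maturation, measured 3.44, 1.4 and 2.81 FPKM in Serum, 1.52, 3.83 and 1.46 in 2i and 13.9, 4.78 and 19.5 in Paused. Its v6.5 library rose least, and its call was lost without the Paused library of E14 (adjusted p = 0.11) or of Oct4 GiP (0.10) and without the Serum library of Oct4 GiP (0.054).

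Sequence around the start is shown for 2 of these genes because each carries the letters of a motif of factors downstream of mTOR, on the strand of the gene, 5′ to 3′, with the motif in capitals. The sequences are RefSeq's on GRCm38.p6 and positions are relative to the transcript start in that table. Crebrf holds CACGTG, the E-box at the core of the CLEAR element of the TFE factors, and Hbp1 holds GTAAACA, the FoxO core TGTTTAC read on the other strand.
Crebrf, chr17:26715499-26715558, plus strand, the first of 2 matches, from base -125: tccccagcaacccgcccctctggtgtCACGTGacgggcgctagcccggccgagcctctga
Hbp1, chr12:31950361-31950420, minus strand, motif from base -149: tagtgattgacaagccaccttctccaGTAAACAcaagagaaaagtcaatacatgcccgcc
In the 250 bases upstream, searched on both strands for the 9168 tested genes with a promoter in the table, CACGTG, which reads the same on both, stood in 10.2% of all and in 130 of 1030 genes of the higher set (12.6%). TGTTTAC stood in 2.64% of all and in 39 of the 1030 (3.79%). In the list of FoxO targets and insulin receptor genes described below, it stood in 3 of 23 matched members (13%), Bcl2l11, Trim63 and Txnip. Fbxo32, Ccng2 and Igf1r of the higher set, also looked up for TGTTTAC, gave no stretch, so the genes shown are picked matches. The gene extents in RefSeq's gene table begin elsewhere for both genes shown: counted from those outermost starts, the Crebrf motif begins at base -69 and the Hbp1 motif 136 bases inside the gene. A match describes the letters and not binding.

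**Figure D3:**
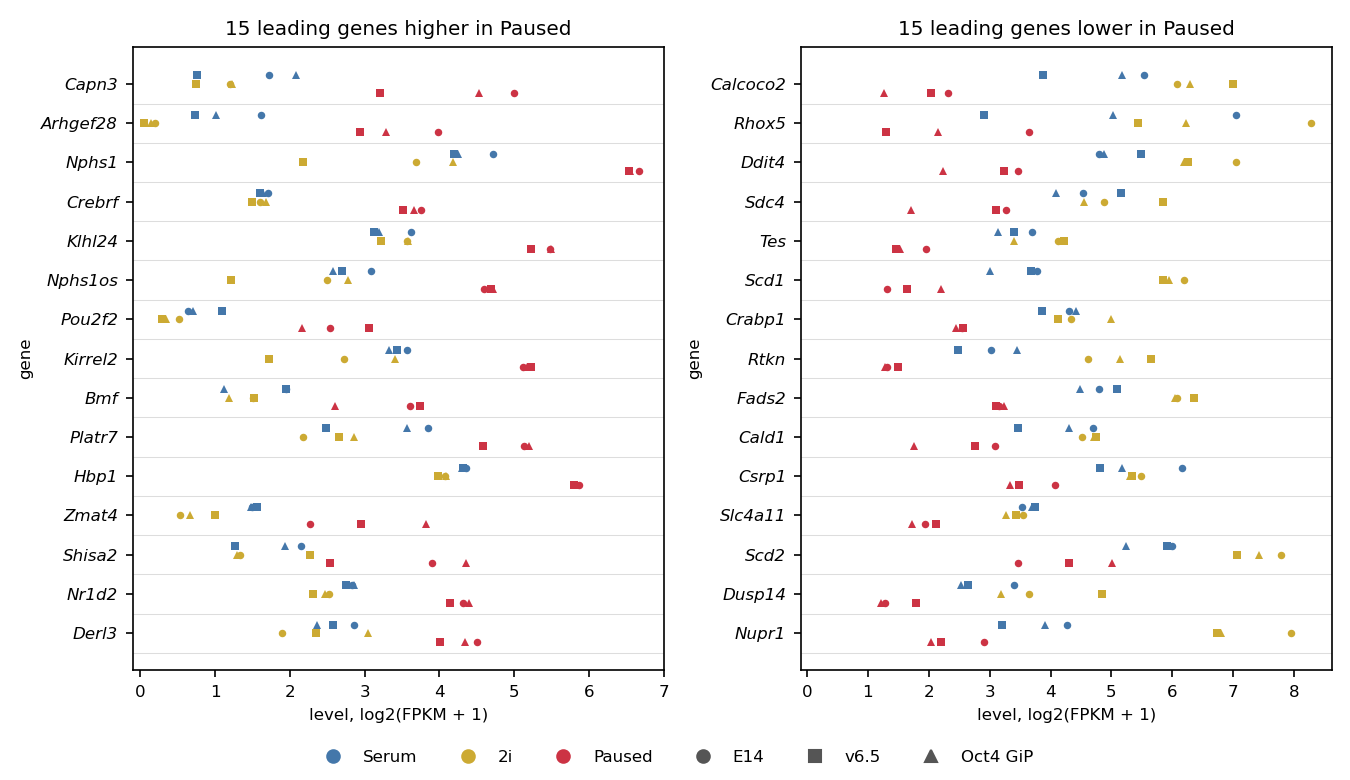
Points are single libraries on a log2(FPKM + 1) axis, coloured by condition and shaped by line, for the 15 genes of each direction with the largest gap. In the left panel the Paused points of each gene lie to the right of the other 6, and in the right panel they lie to the left within each line, with Rhox5 differing between lines more than the other genes.

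The leading genes included 3 neighbours on chromosome 7. Nphs1 encodes nephrin, an adhesion protein of the kidney's filtration slit, Kirrel2 a related adhesion protein, and Nphs1os is a transcript from the opposite strand within Nphs1. Nphs1 measured 25.2, 17.3 and 17.9 FPKM in Serum, 11.8, 3.52 and 17.1 in 2i and 101, 91.6 and 92.5 in Paused. Kirrel2 measured 10.9, 9.79 and 8.99 in Serum, 5.61, 2.3 and 9.63 in 2i and 33.7, 36.4 and 35 in Paused. In both genes the v6.5 library was the lowest of the 2i libraries and the Paused libraries were nearly equal among the lines. The differences were 2.72 ± 0.33 for Nphs1, 2.14 ± 0.30 for Kirrel2 and 2.19 ± 0.29 for Nphs1os, with adjusted p of 0.0039, 0.0052 and 0.0048. Kirrel2 lies at chr7:30447766-30457515 and Nphs1 at chr7:30458207-30488623 in GRCm38.p6, with Nphs1os at chr7:30462164-30465591 inside the latter. Whether fragments were assigned by strand is not given, so the Nphs1os value cannot be told apart from that of Nphs1.

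Some FoxO targets and insulin receptor genes rose. Of 29 tested members of that list, 9 were in the higher set and 2 in the lower (all genes 11.2% and 13.7%), while in the second columns 2 were higher and 14 lower. The median difference was 0.11 against -0.03 for all genes. Besides Klhl24, Txnip, an inhibitor of thioredoxin and of glucose uptake, measured 62.2, 82.6 and 84.9 FPKM in Serum, 34.1, 52.9 and 76.2 in 2i and 193, 168 and 146 in Paused, with the Paused libraries above the other 6 (1.41 ± 0.22, adjusted p = 0.0072). Fbxo32, the ubiquitin ligase atrogin-1, rose from at most 0.658 FPKM to 2.37, 1.9 and 1.37 (1.01 ± 0.12). It met the filter for testing, FPKM of at least 1 in 3 libraries, only through the Paused libraries, so its call is a description. Ccng2, an atypical cyclin, rose by 0.79 ± 0.13. Insr, the insulin receptor, was low in each condition and measured 1.38, 3.11 and 1.86 FPKM in Serum, 1.92, 3.4 and 1.97 in 2i and 3.22, 6.04 and 3.68 in Paused (0.70 ± 0.09, adjusted p = 0.0044). It rose within each line, while the Serum and 2i libraries of v6.5 lay near the Paused libraries of the other lines, and its call was lost without the line block (adjusted p = 0.065). Igf1r, the receptor for insulin-like growth factors, rose by 0.86 ± 0.18, a call lost without the Paused library of E14 (adjusted p = 0.074) or of Oct4 GiP (0.076). Fbxo32 and Klhl24 were also higher in the second columns, by 0.95 and 1.35, whereas Txnip, Ccng2, Insr and Igf1r did not lie outside both conditions there. Gabarapl1, an Atg8-family protein of autophagosomes, fell by 0.95 ± 0.22. Its call was lost without the Paused library of v6.5 (adjusted p = 0.094) or of Oct4 GiP (0.096).

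Genes of the mTOR pathway itself were in both sets at shares near those of all genes. Of 50 tested, 8 were in the higher set and 9 in the lower (16% and 18%, all genes 11.2% and 13.7%), the median was 0.00, and in the second columns 0 were higher and 33 lower. Mtor, the kinase, measured 18.9, 16.4 and 14.9 FPKM in Serum, 21.4, 18.7 and 17.4 in 2i and 26.5, 25.1 and 25.7 in Paused. The Paused libraries lay above the other 6 (0.51 ± 0.08, adjusted p = 0.0061), and in the second columns the difference was -0.21. Rictor, of complex 2, rose from 5.35, 6.12 and 5.15 FPKM in Serum and 5.69, 6.58 and 5.95 in 2i to 9.57, 9.5 and 9.63 (0.64 ± 0.08, second columns -0.02). Rptor, which encodes Raptor of complex 1, differed by -0.00 ± 0.13 (adjusted p = 0.99). Deptor, an inhibitor of both complexes, measured 4.23, 5.47 and 3.3 FPKM in Serum, 12.3, 8.45 and 8.62 in 2i and 9.3, 11.8 and 9.09 in Paused. It was above Serum in each line, but in E14 below 2i, and its call (0.56 ± 0.16, adjusted p = 0.036) was lost without any 1 library other than those of v6.5 in Serum, E14 in 2i and v6.5 in 2i, with adjusted p from 0.071 to 0.15 over the other 6. Fnip1 and Fnip2, which bind folliculin, rose by 0.70 ± 0.08 and 0.51 ± 0.11, and Fnip2 lost its call without the Paused library of E14 (adjusted p = 0.071) or of Oct4 GiP (0.085). In the second columns Fnip1 and Fnip2 differed by 0.06 and -0.17.

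The 9 lower members of the list included Eif4ebp1, Ddit4, Sesn2 and Lamtor4. Eif4ebp1, the translation repressor that complex 1 phosphorylates, measured 655, 741 and 839 FPKM in Serum, 1188, 1134 and 1169 in 2i and 413, 489 and 507 in Paused. The Paused libraries were the lowest and the 2i libraries the highest, without overlap (-0.99 ± 0.08, adjusted p = 0.0019). Ddit4 (REDD1), an inhibitor of complex 1 induced by stress, fell further, from 26.6, 43.8 and 28.5 FPKM in Serum and 132, 75.9 and 72.1 in 2i to 10.0, 8.48 and 3.73 in Paused (-2.79 ± 0.26, adjusted p = 0.0026). Sesn2, a leucine sensor, measured 63.7, 47.2 and 47.4 in Serum, 101, 82.6 and 80.2 in 2i and 44.3, 29.8 and 30.9 in Paused (-0.95 ± 0.07), and Lamtor4, a subunit of the lysosomal scaffold for the Rag GTPases, measured 32.6, 32.6 and 32.6 in Serum, 38.1, 34.5 and 34.2 in 2i and 23.6, 18.7 and 22.1 in Paused (-0.65 ± 0.08). Each of these 4 genes was lower in the second columns too, by -1.4 to -3.62.

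Most core pluripotency factors rose in FPKM but not in the second columns. Of 12 tested, 9 were in the higher set, 0 in the lower and Pou5f1, Nanog and Utf1 in neither, with a median of 0.63, while in the second columns 0 were higher and 1 lower. The median there was -0.12 against -0.73 for all genes. In FPKM 3 of the 12 were called higher against Serum alone and 11 against 2i alone (medians 0.25 and 0.91), and 1 was called in the fit with a single level for Serum and 2i. Sox2 measured 279, 189 and 255 FPKM in Serum, 204, 226 and 239 in 2i and 379, 259.5 and 424 in Paused. The v6.5 Paused library lay below the Serum library of E14, so the conditions overlapped across lines but not within them (0.59 ± 0.13, adjusted p = 0.02, second columns -0.16). The call was lost without the Paused library of E14 or of Oct4 GiP (adjusted p = 0.10 for each) and without the Serum library of Oct4 GiP (0.055). Rif1, a telomere and replication-timing protein, was steadier, with 64.6, 62 and 59.8 in Serum, 50.5, 51.2 and 44.2 in 2i and 95, 109.7 and 87.2 in Paused (0.81 ± 0.07, adjusted p = 0.0023). Lin28a, an RNA-binding protein that blocks let-7 maturation, measured 210.5, 257 and 169 FPKM in Serum, 32.9, 9.92 and 11.4 in 2i and 254, 271 and 197 in Paused, so its combined difference of 2.02 ± 0.30 came with 3.85 ± 0.35 against 2i and 0.19 ± 0.35 against Serum (adjusted p = 0.73). Tdgf1 (Cripto), the Nodal co-receptor, rose by 0.85 ± 0.15, a call lost without the Paused library of E14 (adjusted p = 0.059) or of v6.5 (0.05). Pou5f1 measured 1458, 1237 and 1609 FPKM in Serum, 998, 1241 and 1215 in 2i and 1453, 1475 and 1859.5 in Paused and did not pass the test (0.31 ± 0.10, adjusted p = 0.057).

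Factors of naive pluripotency were in the higher set at a share near that of all genes. Of 16 tested, 3 lay above both other conditions in every line and 0 below. Of these 3, Dppa5a and Stat3 were in the higher set. The shares were 12.5% in the higher set and 0% in the lower (all genes 11.2% and 13.7%). The median was 0.21, made of 0.52 against Serum and -0.12 against 2i. Nanog, of the core list, measured 239, 42.8 and 185 FPKM in Serum, 329, 371 and 383 in 2i and 158, 72.5 and 200.3 in Paused. Within v6.5 the Paused value exceeded Serum and within E14 it fell below it (difference -0.68 ± 0.40, adjusted p = 0.23). Esrrb and Klf4 showed the same low v6.5 Serum library, at 25.2 and 12.2 FPKM against 144 and 156 for Esrrb and 63.2 and 81.6 for Klf4 in the other lines, and did not pass the test (0.30 ± 0.46 and 0.21 ± 0.45, adjusted p = 0.64 and 0.75). Dppa5a, an RNA-binding protein of ES cells, measured 2063, 1495 and 1619 FPKM in Serum, 1416, 1552 and 1541 in 2i and 2555, 2672 and 2118 in Paused (0.60 ± 0.12, second columns -0.14), and lost its call without the Paused library of E14 or of v6.5 (adjusted p = 0.070 for each).

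Several genes that answer ERK signalling rose, by more against 2i than against Serum. Of 17 tested, 7 were in the higher set and 0 in the lower (41.2% and 0%, all genes 11.2% and 13.7%), while in the second columns 0 were higher and 1 lower. The median was 0.72 in FPKM, with 0.19 against Serum and 1.48 against 2i, and 0.16 in the second columns. Spry4, a feedback inhibitor of receptor tyrosine kinases, measured 31.8, 51.1 and 46.9 FPKM in Serum, 2.74, 3.7 and 1.49 in 2i and 54.2, 83.8 and 79.8 in Paused. Its difference of 0.74 ± 0.23 from Serum did not pass on its own (adjusted p = 0.07), while that from 2i was 4.36 ± 0.23 (adjusted p = 0.00028). Spred1, another inhibitor of the pathway, measured 12.4, 20.9 and 19.1 in Serum, 6.64, 7.53 and 5.14 in 2i and 25, 28.2 and 26.5 in Paused, above Serum in each line (1.25 ± 0.15). Egr1, an immediate early gene, was called (2.62 ± 0.36) but in v6.5 its Paused value of 15.5 FPKM lay below the 27 of Serum, so it is in neither set. Tcf15, a factor of the formative list, rose by 2.17 ± 0.27. Of the 14 tested rows of that list 4 were in the higher set and 0 in the lower (28.6% and 0%), with medians of 0.19 against Serum and 2.45 against 2i.

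Myc and several of its partners rose in FPKM, with 5 of 13 tested members of the network in the higher set and 1 in the lower. The shares were 38.5% and 7.7% (all genes 11.2% and 13.7%). The median was 0.32, and the second columns had 0 higher and 3 lower. Myc measured 55.2, 63.3 and 64.6 FPKM in Serum, 3.8, 5.4 and 7.51 in 2i and 66.5, 99.2 and 84 in Paused. The Paused libraries were the highest and the 2i libraries stood far below the rest (2.06 ± 0.13, adjusted p = 0.0013), and against Serum alone the difference of 0.43 ± 0.15 did not pass (adjusted p = 0.089). Mnt and Mga, which bind Max and oppose Myc, were level between Serum and 2i. Mnt measured 21.3, 17.7 and 19.3 in Serum, 17.7, 15.3 and 20.4 in 2i and 34.8, 30.3 and 35.8 in Paused (0.82 ± 0.08), and Mga rose by 0.81 ± 0.08, though in the second columns these differences were 0.11 and 0.10. Mycn measured 146, 196 and 194 in Serum, 33.4, 40.6 and 57.2 in 2i and 207, 149 and 199.8 in Paused, near Serum, and is in neither set despite its call (1.06 ± 0.16).

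In the LIF and STAT3 pathway, kinase targets rose and the ligand fell. Of 15 tested, 5 were in the higher set and 2 in the lower (33.3% and 13.3%, all genes 11.2% and 13.7%), so the lower share was near that of all genes. The median was 0.21, and the second columns had 0 higher and 7 lower. Pim3, a kinase gene induced by STAT3, measured 114, 65.4 and 97.6 FPKM in Serum, 70.2, 52.2 and 78.4 in 2i and 194, 204 and 212 in Paused, with the Paused libraries above the rest (1.39 ± 0.14, adjusted p = 0.0028, second columns 0.65). Pim1 rose by 1.29 ± 0.26, a call lost without the Paused library of E14 (adjusted p = 0.064) or of v6.5 (0.066). Lif itself measured 2.2, 1.9 and 2.32 in Serum, 2.58, 3.85 and 2.95 in 2i and 0.675, 0.787 and 0.421 in Paused (-1.15 ± 0.14, adjusted p = 0.0037). Stat3 was in the higher set by a narrow margin (0.21 ± 0.06, adjusted p = 0.046), was lower in the second columns by 0.53, and lost its call without any 1 library other than that of E14 in 2i, with adjusted p from 0.076 to 0.19.

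Cell cycle genes were in both sets, with G1/S and replication genes in the lower set at a share near that of all genes. Of 38 mitosis genes tested, 14 were in the higher set and 2 in the lower (median 0.18), while in the second columns 0 were higher and 18 lower (median -0.55 against -0.73 for all genes). Top2a, the mitotic topoisomerase, measured 153, 144 and 155 FPKM in Serum, 129.6, 132 and 124 in 2i and 250.4, 220.5 and 219 in Paused, without overlap (0.72 ± 0.07, adjusted p = 0.0026, second columns -0.03). Mki67, the proliferation marker Ki-67, measured 35.5, 37.7 and 30.6 in Serum, 31.2, 29.9 and 29.2 in 2i and 48.6, 53.3 and 64.2 in Paused (0.76 ± 0.11), and Aspm, a spindle pole protein, measured 10.7, 9.98 and 10.3 in Serum, 8.86, 8.84 and 8.84 in 2i and 15.9, 19 and 17.9 in Paused (0.81 ± 0.08). Pttg1 (securin), the inhibitor of separase, went the other way, from 58.1, 42.7 and 58.7 in Serum and 75.6, 121 and 164 in 2i to 29.6, 15.4 and 26.1 in Paused (-1.72 ± 0.25, adjusted p = 0.0058). Of 46 G1/S and replication genes, 3 were in the higher set and 7 in the lower (6.5% and 15.2%, all genes 11.2% and 13.7%), with a median of -0.06. Tk1, the thymidine kinase, measured 44, 63.9 and 56.1 in Serum, 111, 123 and 92.1 in 2i and 25, 27.5 and 36.3 in Paused (-1.36 ± 0.15), and Rrm2, a subunit of ribonucleotide reductase, measured 131, 161 and 155 in Serum, 162, 196 and 146 in 2i and 73.2, 83 and 105 in Paused (-0.86 ± 0.13).

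Many p53 targets and CDK inhibitors fell. Of 27 tested, 13 were in the lower set and 1, Trp53 itself, in the higher, with a median of -0.61 in FPKM and -1.33 in the second columns. Cdkn1a (p21), the CDK inhibitor under p53, measured 24.8, 27.7 and 23.5 FPKM in Serum, 98.6, 107 and 134 in 2i and 16, 11.8 and 12.5 in Paused. The 2i libraries were highest and the Paused libraries lowest (-1.93 ± 0.14, adjusted p = 0.0014), with -0.88 ± 0.17 against Serum (adjusted p = 0.022). Phlda3, a p53-induced inhibitor of Akt, measured 49.2, 53.7 and 49.5 in Serum, 64.3, 89.1 and 74.5 in 2i and 21.3, 21.3 and 14.8 in Paused (-1.66 ± 0.12), and Btg2, an antiproliferative factor, measured 10.3, 13.7 and 11.3 in Serum, 10.9, 22.1 and 20.1 in 2i and 4.41, 4.59 and 3.15 in Paused (-1.59 ± 0.19). In these 2 genes the 3 Paused libraries lay below the other 6. Cdkn1b (p27) lay between the others, at 16.9, 16.9 and 19.8 in Serum, 37, 40.5 and 42 in 2i and 26.1, 27.2 and 33.7 in Paused, so its combined difference was 0.11 ± 0.07 (adjusted p = 0.28), with 0.67 ± 0.08 against Serum and -0.45 ± 0.08 against 2i.

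**Figure D4:**
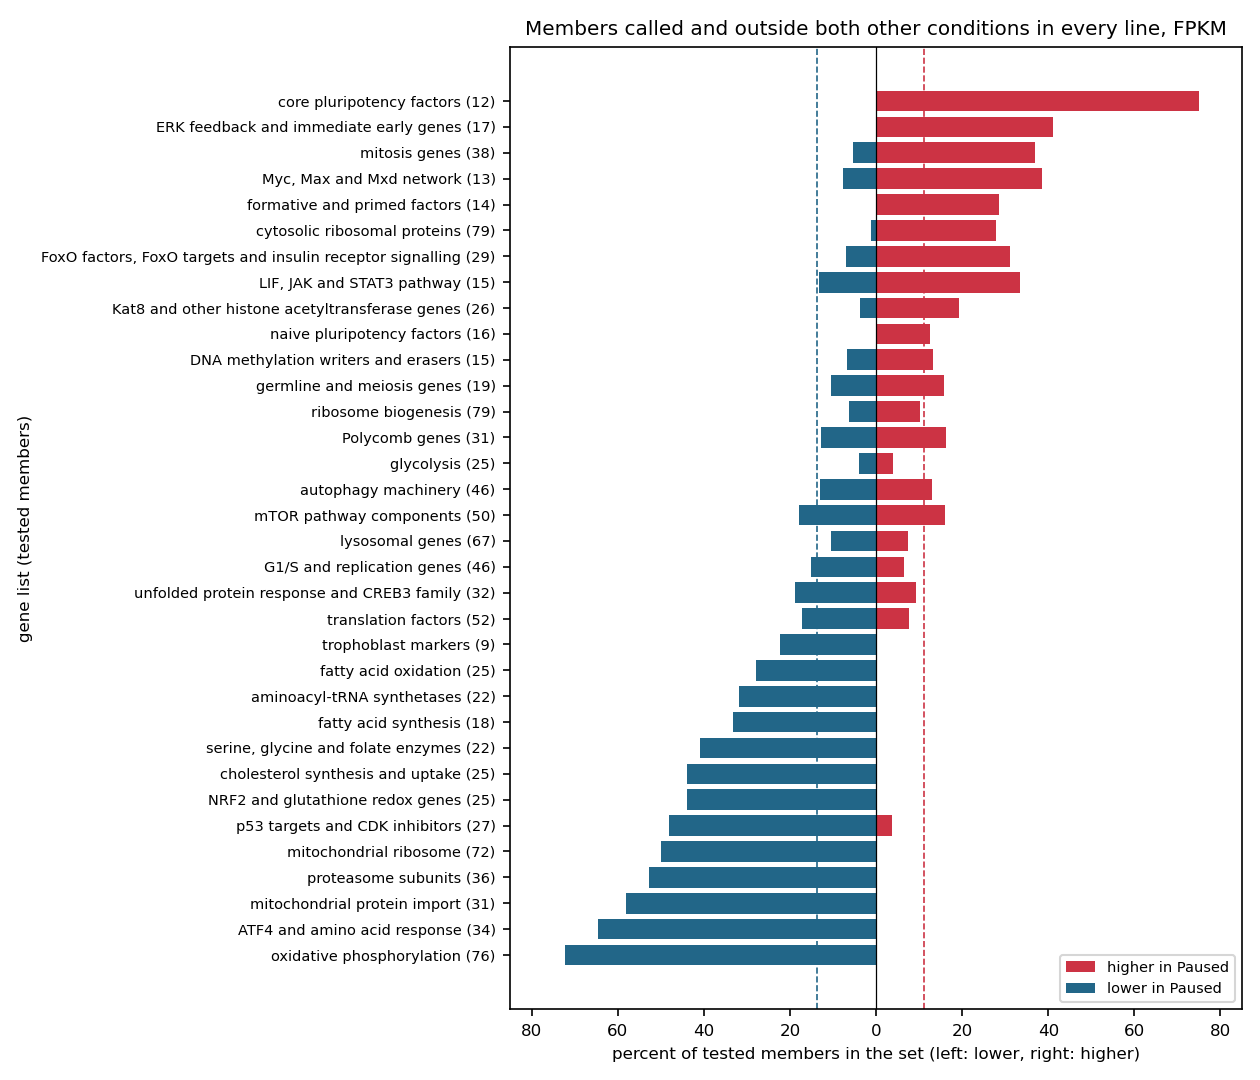
Bars give the percent of each list's tested members (number in brackets) in the higher set (red, right) and in the lower set (blue, left) by FPKM, and dashed lines mark the same shares over all tested genes, 11.2% and 13.7%. Core pluripotency factors extend farthest to the right (9 of 12) and oxidative phosphorylation farthest to the left (55 of 76), and in the second columns of the table no core factor lay in the higher set.

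Cytosolic and mitochondrial ribosomes differed in direction in FPKM and were both lower in the second columns. Of 79 cytosolic ribosomal protein genes tested, 22 were in the higher set and 1 in the lower (median 0.16), whereas in the second columns 0 were higher and 74 lower (median -0.59 against -0.73). In FPKM 3 of the 79 were called higher against Serum alone and 32 against 2i alone (medians 0.10 and 0.22). In the fit with a single level for Serum and 2i, 0 were called. After differences were corrected for transcript length and GC content, 53 were in the higher set and 0 in the lower. Rps27 measured 1759.7, 1943 and 1728 FPKM in Serum, 1610.5, 1859 and 1885 in 2i and 2625, 2275 and 2418 in Paused (0.44 ± 0.09, second columns -0.31), a call lost without the Paused library of E14 (adjusted p = 0.083) or of Oct4 GiP (0.067). Rpl41 was the member of the lower set, at 3669, 4186 and 3384 in Serum, 3394, 3042 and 3343 in 2i and 2584, 2309.9 and 2533 in Paused (-0.50 ± 0.09). Its call was lost without the Paused library of E14 (adjusted p = 0.061) or of v6.5 (0.064) and with the correction for length and GC. Ribosomal protein genes have many near-identical pseudogenes, so single values are uncertain. Of 72 mitochondrial ribosomal proteins, 36 were in the lower set and 0 in the higher (median -0.34), and 24 after the correction for length and GC. Mrps16 measured 93, 76.7 and 98.4 in Serum, 86.5, 74.5 and 79.2 in 2i and 47.4, 43.5 and 56.7 in Paused (-0.77 ± 0.08), and Mrps12 fell by 0.77 ± 0.09.

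Translation factors and ribosome assembly genes showed no common direction. Of 52 translation factors, 4 were in the higher set and 9 in the lower (median -0.03), and of 79 ribosome biogenesis genes 8 and 5 (median 0.10, made of -0.15 against Serum and 0.32 against 2i). The shares were 7.7% and 17.3% for the former and 10.1% and 6.3% for the latter (all genes 11.2% and 13.7%). Eef2, the translocation factor of elongation, measured 1447, 1681 and 1206 FPKM in Serum, 1248, 1226 and 1256 in 2i and 2196, 2086 and 1896 in Paused, above the other 6 libraries (0.62 ± 0.09, adjusted p = 0.0065), with -0.12 in the second columns. Eif2b4, a subunit of the exchange factor for eIF2, measured 59.2, 43.3 and 55.2 in Serum, 60.4, 52.8 and 57.7 in 2i and 33.9, 31.5 and 34.6 in Paused (-0.69 ± 0.08, adjusted p = 0.0032).

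Many genes of the respiratory chain fell. Of 76 oxidative phosphorylation genes tested, 55 were lower and 0 higher, with a median of -0.46 in FPKM and -1.21 in the second columns, and the medians against Serum and 2i were -0.41 and -0.53. The correction for length and GC left 41 lower and 1 higher. Atp5g1, a gene for the c-ring of ATP synthase, measured 313, 255 and 298 FPKM in Serum, 355, 301 and 349 in 2i and 161, 142 and 144 in Paused, so that the Paused libraries were near one another and far below the rest (-1.05 ± 0.06, adjusted p = 0.0012). Uqcrq, of complex III, measured 362, 317 and 412 in Serum, 544, 391 and 482 in 2i and 210.2, 171 and 197 in Paused (-1.10 ± 0.08), and Cycs, which encodes cytochrome c, 58.5, 62.3 and 59.9 in Serum, 71, 55.1 and 52.5 in 2i and 26.9, 32.4 and 31.1 in Paused (-0.97 ± 0.12). Ndufa2, of complex I, fell by 0.78 ± 0.07. Mitochondrial protein import had 18 of 31 tested members in the lower set and 0 in the higher (10 after the length and GC correction), among them Timm8b, a chaperone of the intermembrane space (-0.70 ± 0.08).

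**Figure D5:**
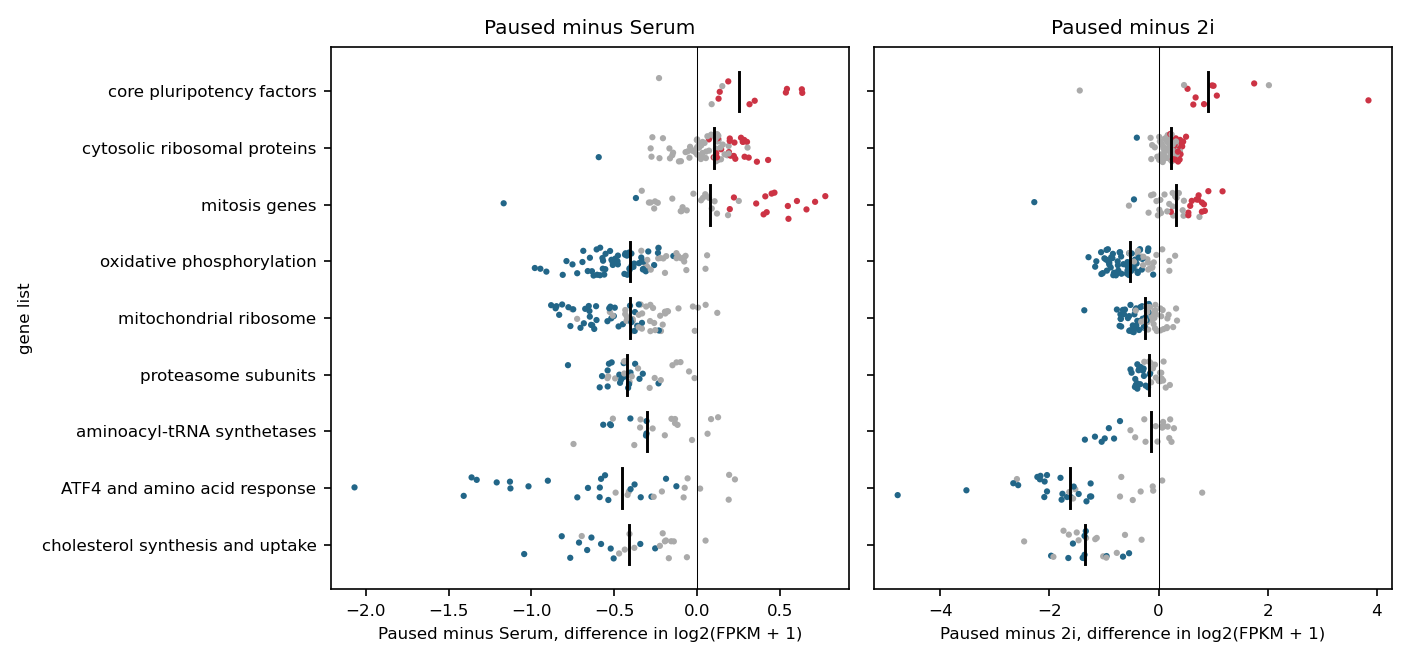
Points are tested members of 9 lists, placed by Paused minus Serum (left panel) and Paused minus 2i (right panel) in log2(FPKM + 1), red for the higher set, blue for the lower and grey for neither, with a black bar at each list's median. Oxidative phosphorylation members lie left of 0 in both panels by similar amounts (medians -0.41 and -0.53), while ATF4 members lie farther left against 2i (medians -0.46 and -1.62), and the panels share the Paused libraries and have different scales.

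Some proteasome subunits and redox genes fell as well. Of 36 proteasome subunits tested, 19 were in the lower set and 0 in the higher (median -0.30), and 12 after the length and GC correction. Psmb6, a catalytic subunit of the core particle, measured 489.8, 511 and 551 FPKM in Serum, 452, 387 and 435 in 2i and 295, 299.9 and 308 in Paused (-0.64 ± 0.07), and Psmb3 fell by 0.49 ± 0.06. Of 25 NRF2 and glutathione genes, 11 were in the lower set and 0 in the higher (median -0.53), and 6 after that correction. Txn1, thioredoxin, measured 429.6, 441 and 416 in Serum, 512, 546 and 556 in 2i and 240.5, 212 and 309 in Paused (-0.93 ± 0.11). Hmox1, heme oxygenase, was highest in Serum, at 87, 169 and 133, with 69.5, 85.9 and 76.5 in 2i and 32.5, 69.6 and 43.1 in Paused (-1.07 ± 0.14), whereas Nqo1, a quinone reductase, was highest in 2i, at 30.8, 116 and 99.6, with 9.02, 15.6 and 15.8 in Serum and 6.09, 10.9 and 8.31 in Paused (-1.79 ± 0.22, and -0.61 ± 0.26 against Serum, adjusted p = 0.14).

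The genes that stood farthest below both conditions included lipid desaturases, stress response genes and cytoskeletal genes. Calcoco2 (NDP52), an autophagy receptor, measured 45.3, 13.7 and 35 FPKM in Serum, 66.2, 127 and 77.4 in 2i and 3.97, 3.09 and 1.39 in Paused, below each of the 6 other libraries (-3.79 ± 0.43, adjusted p = 0.0033). Rhox5, an X-linked homeobox gene, measured 131, 6.52 and 31.4 in Serum, 307, 42.5 and 73.7 in 2i and 11.5, 1.46 and 3.43 in Paused. The lines differed widely, and the E14 Paused library exceeded the v6.5 Serum library, but within each line Paused was lowest (-3.46 ± 0.29, adjusted p = 0.0019). Tes, a LIM-domain protein of focal adhesions, fell from 12, 9.61 and 7.8 in Serum and 16.5, 17.8 and 9.59 in 2i to 2.86, 1.74 and 1.89 (-2.02 ± 0.15), as did Csrp1, another LIM protein (-1.75 ± 0.19), and Cald1 (caldesmon), which binds actin (-1.88 ± 0.33). Sdc4, a cell surface heparan sulfate proteoglycan, fell by 2.15 ± 0.22. Crabp1, which binds retinoic acid, measured 18.8, 13.6 and 20.3 in Serum, 19.2, 16.4 and 30.9 in 2i and 4.81, 4.9 and 4.44 in Paused, with the Paused libraries nearly equal (-1.83 ± 0.17). Rtkn (-2.70 ± 0.27) and Slc4a11, a membrane transporter (-1.61 ± 0.11), fell too. Dusp14, a phosphatase for MAP kinases, fell by 1.95 ± 0.31, a call lost without the Paused library of E14 (adjusted p = 0.05). Sparc, a matricellular protein outside the leading genes, fell by 1.27 ± 0.29 and lost its call without any 1 of the Paused libraries or the Serum library of Oct4 GiP (adjusted p from 0.05 to 0.096).

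Of the 34 tested genes of the ATF4 and amino acid response, 22 were in the lower set (64.7%, all genes 13.7%) and 0 in the higher. The median was -1.02 in FPKM, with -0.46 against Serum and -1.62 against 2i, and -1.79 in the second columns. Against Serum alone 9 were called lower and against 2i alone 27. In the fit with a single level for Serum and 2i, 5 were called. ATF4 is the transcription factor that raises amino acid synthesis, transport and tRNA charging when amino acids are short. The letters TGATGNAA of the C/EBP-ATF response element stood upstream of 7 of the 30 list members with a promoter in the table (23.3%) against 2.35% of all 9168 tested genes and 2.98% of the lower set. Stretches of 3 members of the lower set that hold them are shown because they carry this motif. They are given on the strand of the gene, where the motif appears as its reverse complement, in capitals. Trib3, Sesn2 and Wars, also looked up for these letters, gave no stretch.
Nupr1, chr7:126625547-126625606, minus strand, motif from base -110: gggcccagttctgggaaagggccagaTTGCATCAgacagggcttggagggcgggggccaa
Chac1, chr2:119351023-119351082, plus strand, motif from base -193: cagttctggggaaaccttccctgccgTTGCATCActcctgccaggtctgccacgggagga
Atf3, chr1:191183410-191183469, minus strand, motif from base -110: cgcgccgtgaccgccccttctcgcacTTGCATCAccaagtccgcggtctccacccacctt
Nupr1, a stress-induced chromatin protein, measured 18.2, 8.23 and 14 FPKM in Serum, 246, 106 and 110.1 in 2i and 6.52, 3.6 and 3.09 in Paused, lowest in Paused and far highest in 2i (-3.09 ± 0.16, adjusted p = 0.00098). Against Serum its difference was -1.41 ± 0.19 and against 2i -4.78 ± 0.19. Atf3, a related transcription factor, measured 4.78, 2.08 and 3.03 in Serum, 4.3, 2.42 and 5.55 in 2i and 1.16, 0.429 and 0.368 in Paused, with Serum and 2i alike (-1.48 ± 0.19). Chac1, which degrades glutathione, measured 16.6, 14.9 and 18.9 in Serum, 86.8, 22.7 and 40.3 in 2i and 15.7, 4.84 and 7.73 in Paused (-1.56 ± 0.27). In E14 its Paused value of 15.7 FPKM was just below the 16.6 of Serum, after the length and GC correction it was not below both conditions in every line, and the call was lost without the Paused library of v6.5 (adjusted p = 0.052) or of Oct4 GiP (0.054). Trib3, a pseudokinase that restrains ATF4, fell from 18.5, 13.6 and 20.1 in Serum and 72.1, 39.2 and 50.4 in 2i to 11.5, 6.46 and 6.74 (-1.79 ± 0.14).

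Some enzymes of serine synthesis and one-carbon metabolism, several of them on the same list, fell. Of 22 tested serine, glycine and folate enzymes, 9 were in the lower set and 0 in the higher (median -0.41). Psph, the last enzyme of serine synthesis, measured 24, 22.9 and 28 FPKM in Serum, 69.8, 36.2 and 47.7 in 2i and 11.5, 7.44 and 12.3 in Paused (-1.69 ± 0.16, adjusted p = 0.0024). Psat1, the enzyme before it, measured 159, 133 and 147 in Serum, 359, 146 and 186 in 2i and 90.5, 46 and 70.1 in Paused (-1.40 ± 0.17), and Mthfd2, of the mitochondrial folate pathway, 53, 68.5 and 69.1 in Serum, 169, 78.5 and 84.6 in 2i and 26.1, 20.4 and 27.5 in Paused (-1.69 ± 0.24). In each of these genes the E14 library was the highest of the 2i libraries and the Paused libraries were the lowest of their lines. Phgdh, the first enzyme of the route, fell by 1.46 ± 0.27, a call lost without the Paused library of E14 (adjusted p = 0.065) or of v6.5 (0.054). Of 22 aminoacyl-tRNA synthetases, 7 were in the lower set and 0 in the higher (median -0.21). Aars, which charges alanine tRNA, measured 187, 204 and 265 in Serum, 299, 322 and 308 in 2i and 127, 139 and 190.4 in Paused (-0.78 ± 0.11), and Wars, for tryptophan, fell by 0.64 ± 0.10.

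Some lipid synthesis genes fell. Against Serum alone 3 of 18 fatty acid synthesis and 6 of 25 cholesterol genes were called lower, and against 2i alone 12 and 24. In the combined comparison, of the 18 fatty acid synthesis genes, 6 were in the lower set and 0 in the higher (median -0.63, with -0.23 against Serum and -1.29 against 2i). Scd1, the stearoyl-CoA desaturase, measured 12.8, 11.8 and 7.03 FPKM in Serum, 72.4, 56.3 and 60.4 in 2i and 1.49, 2.14 and 3.61 in Paused (-3.02 ± 0.26, adjusted p = 0.0021). Its paralog Scd2 measured 62.9, 59.5 and 36.6 in Serum, 220.0, 133 and 171 in 2i and 10.1, 18.7 and 31.1 in Paused (-2.31 ± 0.37). In both the Oct4 GiP line showed the smallest distance between Serum and Paused, and against Serum the difference of Scd2 was -1.46 ± 0.43 (adjusted p = 0.063). Fads2, the delta-6 desaturase, was steadier, at 26.9, 33 and 21.3 in Serum, 66.6, 81.3 and 64.6 in 2i and 7.95, 7.62 and 8.45 in Paused (-2.30 ± 0.12, adjusted p = 0.00098). Of 25 cholesterol genes, 22 were called lower, of which 11 had Paused below both conditions in every line (median -0.87, with -0.41 against Serum and -1.35 against 2i). Hmgcs1, the synthase of the mevalonate pathway, measured 53, 67.3 and 37.6 in Serum, 106, 141 and 114 in 2i and 25.2, 29.1 and 35.7 in Paused, with a small margin in Oct4 GiP (-1.37 ± 0.18). Of the 18 matched cholesterol genes it was the 1 with the letters TCACNCCAC of the sterol response element upstream, which 1.34% of the 9168 genes hold.
Hmgcs1, chr13:119690188-119690247, plus strand, motif in capitals from base -137: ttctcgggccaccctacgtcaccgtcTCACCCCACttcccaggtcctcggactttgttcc
Idi1, an isomerase later in the pathway (-1.19 ± 0.18), Dhcr7, for the final step of cholesterol synthesis (-1.23 ± 0.19), and Fdps, the farnesyl diphosphate synthase (-1.04 ± 0.16), fell as well. Fatty acid oxidation had 7 of 25 tested genes in the lower set and 0 in the higher (median -0.37). Acaa2, a thiolase of that pathway, fell by 1.15 ± 0.23, a call lost without the Paused library of E14 (adjusted p = 0.078) or of Oct4 GiP (0.068).

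Most glycolysis genes were in neither set. Of 25 tested, 4 were called higher and 6 lower, but 1 was in the higher set and 1 in the lower, and the median was -0.29. Pdk1, the kinase that shuts pyruvate dehydrogenase, measured 36.6, 46.9 and 37.6 FPKM in Serum, 26, 18.1 and 21.6 in 2i and 65.3, 88.3 and 68.9 in Paused (1.29 ± 0.16, adjusted p = 0.0039). Pfkm, a phosphofructokinase gene, was the lower member (-0.64 ± 0.19, adjusted p = 0.043), with a call that was lost without any 1 library other than those of E14 and Oct4 GiP in 2i (adjusted p from 0.061 to 0.18). Hk1, a hexokinase, measured 18.4, 5.56 and 10.7 in Serum, 53.7, 43.4 and 46.8 in 2i and 9.6, 6.35 and 4.69 in Paused, above Serum in v6.5 and below it in the other lines (-1.63 ± 0.23). Slc16a3, a lactate exporter, was below Serum and far above 2i in each line, at 37.4, 64.4 and 27.1 in Serum, 1.57, 1.38 and 1.17 in 2i and 34, 53.5 and 12.2 in Paused.

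Lysosomal, autophagy and endoplasmic reticulum stress genes were in both sets at shares near those of all genes (11.2% and 13.7%). Of 67 lysosomal genes, 5 were in the higher set and 7 in the lower (7.46% and 10.45%), with medians of 0.19 against Serum and -0.35 against 2i, so that as a list they lay between the conditions. The letters CACGTG, the core of the CLEAR element, stood upstream of 16 of 52 matched lysosomal genes (30.8%) against 10.2% of all. Ctsf, a cathepsin with that motif, measured 6.53, 5.34 and 8.44 FPKM in Serum, 4.62, 9.69 and 10.8 in 2i and 14.3, 15.2 and 22.3 in Paused (1.12 ± 0.18), and was also higher in the second columns (0.46), with a call in FPKM that was lost without the Paused library of E14 (adjusted p = 0.053). Ctsc, another cathepsin, measured 3.09, 5.81 and 2.09 in Serum, 16.2, 14.8 and 6.44 in 2i and 1.33, 1.22 and 0.829 in Paused and fell (-1.82 ± 0.21). Of 46 autophagy genes, 6 were in each set (13.04%). The receptor Optn measured 3.45, 6.72 and 2.72 in Serum, 3.61, 4.56 and 2.05 in 2i and 9.05, 17.6 and 4.99 in Paused (1.16 ± 0.15), rising within each line but losing its call without the line block (adjusted p = 0.055). Calcoco1, a paralog of Calcoco2, measured 26.4, 18.9 and 24.4 in Serum, 20.8, 23.6 and 23 in 2i and 51, 49.7 and 40.4 in Paused (1.01 ± 0.13), opposite in direction to Calcoco2. Map1lc3a, an Atg8 family member, fell by 0.56 ± 0.08. Among 32 genes of the unfolded protein response and CREB3 family, 3 were in the higher set, which were Crebrf, Derl3 and the chaperone gene Dnajb9 (0.71 ± 0.09), and 6 in the lower.

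Chromatin lists were in both sets, for Polycomb and DNA methylation genes at shares near the 11.2% and 13.7% of all genes. Of 26 histone acetyltransferase genes, 5 were in the higher set and 1 in the lower (19.2% and 3.8%). Kat8, which acetylates lysine on histone H4, measured 22.4, 31.8 and 25.3 FPKM in Serum, 16.2, 19.6 and 17.5 in 2i and 24.2, 23.3 and 26.7 in Paused (0.19 ± 0.11, adjusted p = 0.22). Of 31 Polycomb genes, 5 and 4 were in the sets. Among 15 genes of DNA methylation, 2 were in the higher set and 1 in the lower. Tet1, a dioxygenase that oxidises methylcytosine, measured 52.1, 34.5 and 44.8 in Serum, 43.6, 41.9 and 34.8 in 2i and 73.5, 77.9 and 90.5 in Paused, above the other 6 libraries (0.93 ± 0.14, adjusted p = 0.0067, second columns 0.20). Dnmt3l, the cofactor of the de novo methyltransferases, measured 363, 491 and 229 in Serum, 32.4, 45.1 and 7.69 in 2i and 403, 907 and 251 in Paused (2.32 ± 0.25), so that its difference was 4.25 ± 0.29 against 2i and 0.39 ± 0.29 against Serum (adjusted p = 0.37).

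A group of 56 genes, 0.441% of those tested, stood in the higher set on both scales. The second columns hold the same FPKM times a constant that was lower in Paused, so they are no separate measure. Genes with a large gap in FPKM are the ones able to stay higher there. Among the named genes the 56 include 14 of the 15 with the largest gap, the exception being Shisa2, together with Fbxo32, Optn and Ctsf. Of these, Arhgef28, Pou2f2 and Fbxo32 met the filter for testing only through the Paused libraries. In the second columns Arhgef28 was higher by 2.90, Capn3 by 2.67, Nphs1 by 2.05, Pou2f2 by 1.99, Crebrf by 1.58, Klhl24 by 1.35 and Hbp1 by 0.94. Sox2, Myc and Mtor were not among them.

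Some genes that separated Paused from the other conditions in the combined test lay between them. Irak1, a kinase of Toll-like receptor signalling, measured 17.9, 15.9 and 17.3 FPKM in Serum, 177, 117 and 188 in 2i and 109, 106 and 112 in Paused. Paused lay below 2i and far above Serum in each line, so the combined difference of 1.04 ± 0.12 (adjusted p = 0.0033) was made of 2.61 ± 0.14 against Serum and -0.53 ± 0.14 against 2i. Utf1, a chromatin factor of ES cells, was called higher (0.90 ± 0.10) although its Paused libraries, at 488, 621 and 405, lay below those of Serum, at 543, 719 and 508, and above those of 2i, at 121, 175 and 85.3.

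Marker lists of ES cells and of other cell types were summed in each library. The summed FPKM of 8 ES cell markers ran from 6212 to 6532 in Paused, 4396 to 5637 in Serum and 3812 to 4495 in 2i, and each marker had FPKM of 1 or more in every library. Of the 8, 4 were in the higher set and 0 in the lower. Mean FPKM of Dppa5a was 2448 in Paused and 1614 in the 6 others, and that of Nanog 144 and 258. Sums were not taken in the second columns, whose constants were lower in Paused, so this order holds for FPKM only. The sum of 8 trophoblast markers ran from 7.67 to 25 in Paused, 15.9 to 24 in 2i and 47.6 to 284 in Serum, with Elf5 under 1 in the 9 libraries. Most of that Serum range was Krt8 and Krt18, keratins of simple epithelium. Krt8 measured 161, 24.4 and 62.6 FPKM in Serum, 6.72, 12.8 and 11.3 in 2i and 9.58, 7.16 and 3.45 in Paused and was called lower (-1.86 ± 0.55, adjusted p = 0.043), but in E14 its Paused value lay above that of 2i, and the call was lost without any 1 library other than those of v6.5 in Serum and E14 in 2i (adjusted p from 0.063 to 0.19). Krt18 did not pass (-0.57 ± 0.45, adjusted p = 0.36). The sum of 9 feeder cell markers ran from 7.4 to 13.9 in Paused, 3.89 to 5.12 in 2i and 31.7 to 138 in Serum, with Col1a2, Col3a1, Dcn, Lum and Postn under 1 in the 9 libraries. Cytoskeletal and adhesion genes that fell, such as Cald1, Csrp1 and Sparc, are also expressed by such cells, and the part of these markers in their values was not tested. Neuroectoderm markers summed to 55.4 to 75.4 in Paused, 55.1 to 92.9 in Serum and 32.3 to 92.6 in 2i, with 2 of 3 tested members, Pax6 and Sox1, in the higher set (2.23 ± 0.26 and 1.27 ± 0.25), the latter lost without the line block (adjusted p = 0.16). Pax6 measured 3.06, 3.31 and 7.44 in Serum, 0.429, 0.245 and 0.678 in 2i and 15.2, 5.29 and 20.2 in Paused, while Neurog2 was under 1 in the 9 libraries. Tfap2c, a factor of trophoblast and germ cells, fell by 1.20 ± 0.19 and ran from 5.19 to 58.8 FPKM over the 9 libraries, a call lost without the line block (adjusted p = 0.11).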

How the data were processed

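Total RNA (250 ng per library) from 9 cultures was made into libraries with a directional kit after mRNA purification, with ERCC control RNA added, according to the labels. Their processed values came as 1 table of 18 value columns, a pair for each library, matched by name. The first holds FPKM made by the authors with Cuffnorm on mm10, per the submitters' processing notes, which give no version. The second, headed as normalized expression, is a signal equal to the deposited FPKM times 1 constant per library, read here from the values. For the aligner, annotation, strand setting and origin of the constant, the sources used here give nothing. Without read counts the depth in reads is unknown, and counting error has no interval. Steps between low FPKM values of the same genes put the worth of 1 fragment at 0.811 to 1 of that in the E14 Serum library, read from the most common step, which 25.6% to 34.6% of the low values share in the other 8 libraries. Between 11709 and 12112 named genes reached FPKM of 1 in a library.

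Of 29801 rows, 5644 without a gene name (18.9%, 52.8% to 64.0% of a library's FPKM) and 113 identical repeats were left out. Genes were kept where 3 or more of the 9 libraries had FPKM of at least 1, which left 12711 rows, and a gene may stand on more than 1 row. Values were taken as log2(FPKM + 1), which understates changes of low genes. The 9 libraries entered 1 limma-trend fit (R 4.3.3, limma 3.58.1) with 3 condition levels and the cell line as block, 4 residual degrees of freedom, and Benjamini-Hochberg adjustment at 0.05. The fit was tested on simulated data. The pairing is the labelled line: deviations from condition means correlated across genes at -0.001 to 0.401 for the same line and -0.243 to 0.094 between lines. Library values were compared by exact permutation tests (scipy 1.17.1).

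The members, the gene lists and the motifs were chosen with earlier results of these data known, and lists are described by counts and medians without a test. Named genes are, per direction, the 15 with the largest gap in the sets with a mean FPKM of at least 5, up to 4 set members per list and direction by gap (2 by difference where a list had none), and a fixed panel, without predicted, small RNA or joined symbols. Not every gene under this rule is described. Gene coordinates and promoters are RefSeq's on GRCm38.p6, the assembly of mm10. The alternatives were other pseudocounts (0.1 and 5), filters, scaling, columns, fits without the block or with 2 levels, a robust fit, correction by loess for transcript length and GC (values for 97.4% of tested genes), and fits without each library or line.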

Additional observations from a re-analysis of the deposited data

How the results depend on the processing

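With the second deposited columns in place of FPKM, 241 genes were called higher and 9273 lower, Paused was above both conditions in every line for 71 and below both for 7944, and the sets held 56 and 7736. On those columns the differences of 15 named genes reversed sign: Mtor -0.21, Rictor -0.02, Deptor -0.10, Fnip2 -0.17, Sox2 -0.16, Pou5f1 -0.44, Dppa5a -0.14, Stat3 -0.53, Rps27 -0.31, Rpl17 -0.40, Eef2 -0.12, Top2a -0.03, Ctsl -0.07, Cdkn1b -0.62 and Kat8 -0.55. No named gene reversed under the other alternatives run. With 2 condition levels and the block, 207 were called higher and 313 lower, the same in the sets. Without the replicate block the sets held 1134 and 1454 genes, and 7 named genes lost their call, against 1422 and 1740 with the pairing by line. Leaving out each library in turn gave 551 to 2049 genes called higher and 856 to 2570 lower, 2085 to 2812 above and 2357 to 3031 below both conditions, and sets of 501 to 1576 and 755 to 1846. Of 137 genes followed, 129 were called and 30 of these lost the call without at least 1 library. Without the E14 line 736 and 1114 were called (sets 657 and 932), without v6.5 926 and 1299 (higher set 865), and without Oct4 GiP 58 and 80 (sets 53 and 77), where fewer libraries leave 2 residual degrees of freedom. Length and GC correction gave sets of 1482 and 1369, and median-centred libraries 1548 and 1625. The other alternatives kept each count within 1.5 times. What depth limits cannot be given, since the table holds no read counts.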

Other observations

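Germline genes did not share a direction. Of 19 tested, 3 were in the higher set and 2 in the lower (15.8% and 10.5%, all genes 11.2% and 13.7%), and the median difference was 0.35. Rhox5 was the lower member with the largest gap. Of 9 trophoblast factors on the pathway list, 0 were in the higher set and 2 in the lower (0% and 22.2%), with medians of -0.95 against Serum and -0.09 against 2i. The summed FPKM of 6 primitive endoderm markers ran from 2.03 to 4.65 in Paused, 3.10 to 3.97 in Serum and 3.04 to 4.92 in 2i, with Gata6, Pdgfra, Sox17 and Sox7 under 1 in the 9 libraries. That of 5 mesoderm markers ran from 1.37 to 2.39 in Paused, 2.22 to 17.6 in Serum and 4.78 to 8.04 in 2i, with Mesp1 and Tbx6 under 1 throughout. Vim, which encodes the intermediate filament vimentin, measured 142, 51.7 and 81.6 FPKM in Serum, 281, 49.3 and 132 in 2i and 28.1, 45 and 28.6 in Paused. The E14 and Oct4 GiP libraries fell in Paused while v6.5 stayed near its other conditions (-1.59 ± 0.46, adjusted p = 0.039), and the call was lost without any 1 library other than those of v6.5 in 2i and in Paused, with adjusted p from 0.061 to 0.17.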
